A study of Mus musculus with 32 samples.

Results

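Necrostatin-1 (Nec-1), an inhibitor of the kinase RipK1, was added to WT bone marrow-derived macrophages (BMDMs) stimulated with LPS and zVAD, and the mRNA of these cells was compared with that of cells given LPS and zVAD alone. The members are the arrays labelled WT with LPS, zVAD and Nec-1 and those labelled WT with LPS and zVAD, 2 arrays a group, which makes 4 of the 32 arrays of the series. The cells were bone marrow of C57BL/6 mice (C57BL6/J in the methods) grown into macrophages with M-CSF, and every treatment lasted 6 h. For reference, 2 arrays each of untreated WT BMDMs, of WT BMDMs with LPS alone, with IFNβ+zVAD and with IFNβ+zVAD+Nec-1, and of Ifnar1-/- BMDMs, which lack a type I interferon receptor subunit, with LPS+zVAD and with LPS+zVAD+Nec-1 were used. Doses differ between sources. For LPS they are 100 ng/mL in the labels, 1 ng/mL in the legends and 10 ng/mL in the methods, and for IFNβ 1000 U/mL, 100 U/mL and 10 ng/mL. The dose of zVAD was 50 µM and that of Nec-1 10 µM. The labels name Necrostatin-1 and the reagent list a chlorinated Nec-1 analogue, so which of these compounds the cells received is not settled here. The age and sex of the mice are not given in the sources used here. The legends speak of repeated experiments, but the sources do not tie the arrays of a group to separate mice or cultures, so the p-values measure only the spread between these arrays, which may be technical.

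LPS is a bacterial ligand of TLR4. TLR4 signals through the adaptors MyD88 and TRIF, and TRIF and the TNF receptor can both recruit RipK1. Caspase-8 normally cleaves RipK1 and RipK3, and the pan-caspase inhibitor zVAD lifts this restraint, so that RipK1 kinase activity can drive RipK3 to phosphorylate MLKL, which breaches the plasma membrane in the lytic cell death called necroptosis. Macrophages are sensitive to this combination, and RipK1 and RipK3 are also known to feed signals to MAP kinases and NF-κB.

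The arrays measured 55681 probes, and values are log2 intensities after quantile normalization between the arrays. A gene is represented by its brightest probe, which can be compared between arrays but not with the probe of another gene. On the 4 arrays 55.0% to 65.4% of the probes were well above background, and replicates of a group correlated at 0.980 and 0.982 (Pearson r across genes, which are not independent replicates). All 8 macrophage markers were measured, of which Fcgr1 rose (log2 difference 2.92) and Cd68 fell (-0.65) with Nec-1. Csf1r, the M-CSF receptor, was at 18.01 and 17.76 on the LPS+zVAD arrays and 17.89 and 17.86 with Nec-1. Of 28 measured markers of neutrophils, T and NK cells, B cells, dendritic cells, fibroblasts and erythroid cells, 1 (Cd79b of B cells, log2 difference -1.23) fell with Nec-1. The array labelled Ifnar1-/- LPS+zVAD+Nec-1 replicate 2 stood apart from its partner, with which it correlated at 0.947, and was closest to Ifnar1-/- IFNβ+zVAD+Nec-1 replicate 2, at 0.993. One estimate of the spread served the 16 groups. Calls of named genes on the 4 WT arrays that change without this Ifnar1-/- pair are given both ways. Counts of gene lists come from the fit with all arrays only.

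Nec-1 changed a large part of the transcriptome of LPS+zVAD-treated BMDMs. Of 15961 genes tested with limma, 3001 (18.8%) were higher and 1567 (9.82%) lower with Nec-1 at an adjusted p under 0.05, and a gene past this limit is said to have risen or fallen. A 2-fold size was reached by 1849 of the genes that rose and by 1128 of those that fell, and the median log2 difference over all genes was 0.02. In the same fit zVAD added to LPS had raised 2060 genes (12.9%) and lowered 3483 (21.8%). Between LPS+zVAD+Nec-1 and LPS alone, 19 genes differed (0.119%), and 1051 had an unadjusted p under 0.05. The absolute difference from LPS alone had a median of 0.55 log2 with LPS+zVAD and 0.19 log2 with LPS+zVAD+Nec-1. Differences from LPS alone of at least 2-fold were found in 4508 genes with LPS+zVAD and in 652 with LPS+zVAD+Nec-1. The 3 comparisons share arrays pairwise, so their values stand side by side and are not independent. The 4 arrays in bulk cannot tell fewer cells of a kind from less RNA per cell. Each of the 2 slides that carried WT arrays held all 8 WT treatments, and with the slide as a block the Nec-1 count was 6779 genes, 4015 higher and 2764 lower. Without LPS+zVAD replicate 2 it was 2595 genes, 1933 higher and 662 lower, and a fit of the 4 arrays alone called 0 genes (4776 at an unadjusted p under 0.05).

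**Figure D1:**
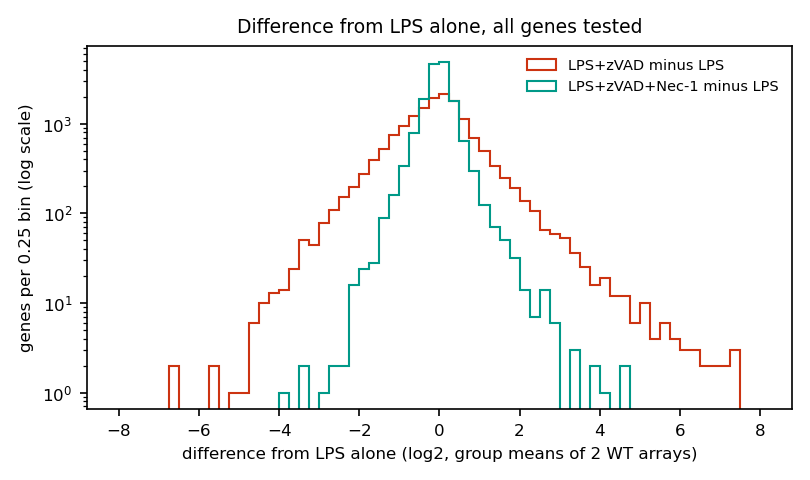
Number of genes (log axis) per 0.25 log2 bin of the difference from LPS alone, for LPS+zVAD and for LPS+zVAD+Nec-1, from group means of 2 WT arrays each. The LPS+zVAD outline is the wider one, with a median absolute difference of 0.55 log2 against 0.19 log2 with Nec-1.

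The RipK1 pathway itself moved at the mRNA level. Ripk3, the kinase that phosphorylates MLKL, had log2 intensities of 12.92 and 13.86 on the LPS+zVAD arrays and 11.59 and 12.15 on the LPS+zVAD+Nec-1 arrays, and of 11.47 and 12.16 with LPS alone. Both Nec-1 arrays lay below both LPS+zVAD arrays and close to the LPS arrays (log2 difference -1.52, standard error 0.28, adjusted p = 0.000488). Ripk1 (probe on chromosome 13, 34125152 to 34125211 of mm9), the target of Nec-1, was at 13.37 and 13.67 on the LPS+zVAD arrays and 12.69 and 12.70 on the LPS+zVAD+Nec-1 arrays. The groups did not overlap, and Ripk1 fell by 0.83 log2 (standard error 0.16, adjusted p = 0.00059). Mlkl, the executioner of necroptosis, was at 14.29 and 14.88 on the LPS+zVAD arrays and 14.53 and 14.38 on the LPS+zVAD+Nec-1 arrays, overlapping values with a log2 difference of -0.13 (adjusted p = 0.796). Of the 24 genes of the necroptosis machinery, 9 rose and 3 fell (37.5% and 12.5%), with a median of 0.54. The shares of all genes tested were 18.8% and 9.82%. The genes that rose include Casp8, the protease that restrains this pathway (1.25), the TNF receptor Tnfrsf1a (1.14) and its adaptor Tradd (1.24), the linear ubiquitin ligase subunits Rbck1 (1.31), Sharpin (0.54) and Rnf31 (0.78), the deubiquitinase Cyld (1.05), the phosphatase Ppm1b (0.67) and the kinase Ikbke (2.39). Besides Ripk1 and Ripk3, the TRIF gene Ticam1 fell (-0.93). Calls were lost without LPS+zVAD replicate 2 for Ikbke (adjusted p = 0.161). The difference was 0.86 for Rbck1 without LPS+zVAD replicate 2.

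The genes that Nec-1 lowered included most of a list of immediate early genes, which are induced without new protein synthesis downstream of MAP kinases. The list holds mainly transcription factors, with other genes such as Arc and Ccn1. Of 26 measured, 15 fell and 3 rose (57.7% and 11.54%, against 9.82% and 18.8% of all genes tested), with a median of -1.18. Maff, a small MAF factor, was at 15.11 and 15.34 on the LPS+zVAD arrays and 10.75 and 12.04 on the LPS+zVAD+Nec-1 arrays (log2 difference -3.82, standard error 0.87, adjusted p = 0.00258). Arc, a classic serum response target, was at 12.22 and 11.57 on the LPS+zVAD arrays and 8.69 and 8.44 on the LPS+zVAD+Nec-1 arrays (log2 difference -3.33, standard error 0.42, adjusted p = 1.46e-05). Klf4, a zinc finger factor, was at 13.47 and 14.05 on the LPS+zVAD arrays and 10.76 and 10.74 on the LPS+zVAD+Nec-1 arrays (log2 difference -3.01, standard error 0.42, adjusted p = 4.11e-05). In all 3 genes both LPS+zVAD arrays lay above both Nec-1 arrays, by 14.2-fold, 10.0-fold and 8.06-fold in the mean. Egr1, the early growth response factor, fell from 14.14 and 12.77 to 10.86 and 10.96 (log2 difference -2.54, standard error 0.60, adjusted p = 0.00348). Egr2 (-2.46), Ier5 (-2.15), Nr4a1 (-1.69), Fosb (-1.64), Klf2 (-1.63), Fosl1 (-1.59), Jun (-1.51), Klf10 (-1.46), Myc (-1.37), Nr4a2 (-0.998) and Junb (-0.89) fell too. The 3 that rose were Ier2 (1.31), Ccn1 (1.25), a matricellular protein, and Srf (0.85), the serum response factor. With LPS alone the means were 11.26 for Maff, 6.87 for Arc, 9.93 for Klf4 and 9.48 for Egr1. The test was no longer passed without LPS+zVAD+Nec-1 replicate 1 for Ier2 (adjusted p = 0.0857), without LPS+zVAD+Nec-1 replicate 2 for Ier2 (adjusted p = 0.0908), without LPS+zVAD replicate 1 for Egr1 (adjusted p = 0.0605) and without LPS+zVAD replicate 2 for Ier2 (adjusted p = 0.247). In the WT arrays alone Ier2 did not pass (adjusted p = 0.0583). The call also ended with array weights for Ier2.

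**Figure D2:**
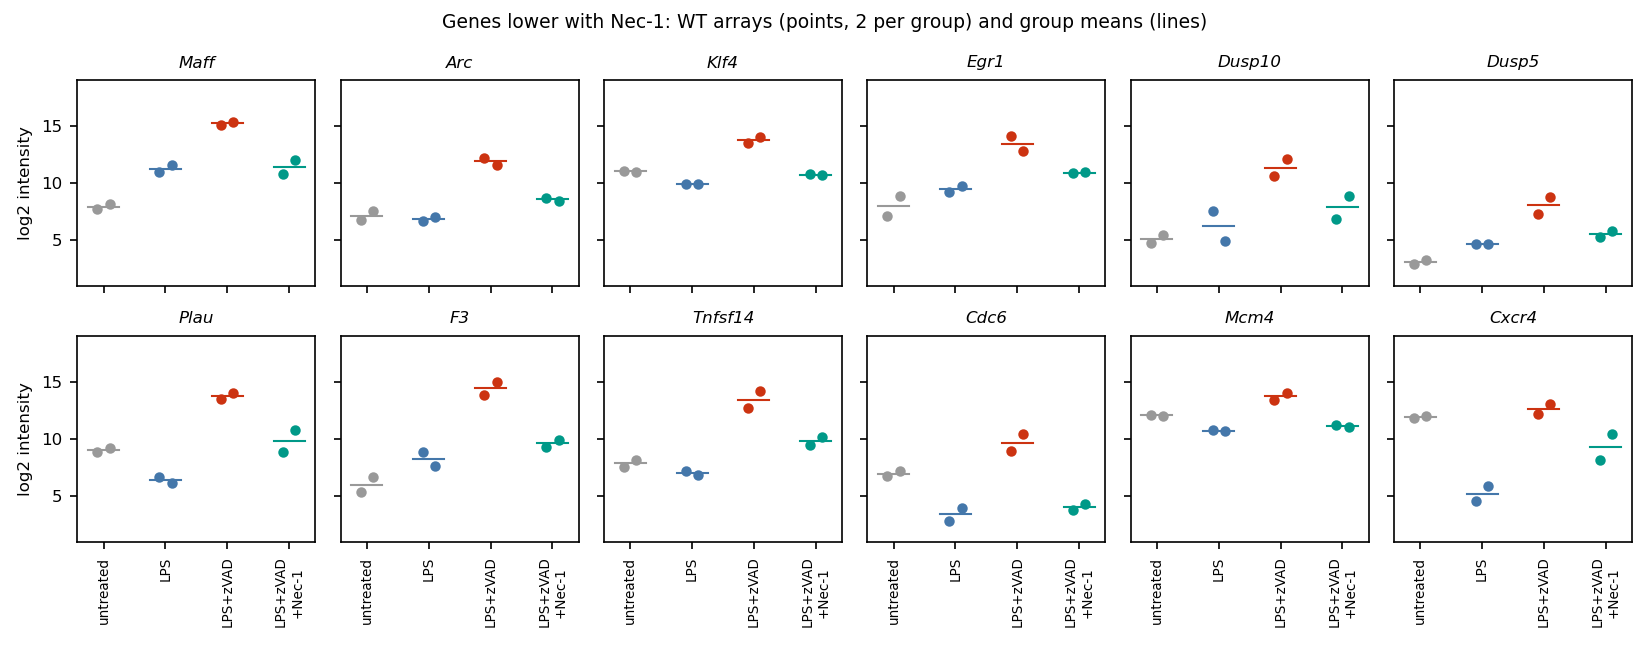
Log2 intensity of 12 genes lower with Nec-1, in untreated, LPS, LPS+zVAD and LPS+zVAD+Nec-1 WT BMDMs. Points are arrays (2 a group) and lines group means. The genes were chosen among those that fell, so the LPS+zVAD points above both Nec-1 points in each gene reflect that choice.

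Several feedback inhibitors of MAP kinases fell with Nec-1. Of 13 measured genes of this list 6 fell and 1 rose (46.2% and 7.69%, median -0.22), against 9.82% and 18.8% of all genes tested. The dual specificity phosphatase Dusp10, which acts on p38 and JNK, was at 10.60 and 12.07 on the LPS+zVAD arrays and 6.88 and 8.91 on the LPS+zVAD+Nec-1 arrays (log2 difference -3.44, standard error 0.72, adjusted p = 0.00135). Dusp5, a nuclear ERK phosphatase, was at 7.30 and 8.81 on the LPS+zVAD arrays and 5.30 and 5.79 on the LPS+zVAD+Nec-1 arrays (log2 difference -2.51, standard error 0.58, adjusted p = 0.0029). Neither pair of groups overlapped. Dusp14 (-3.14), Dusp8 (-2.71), Dusp4 (-2.11) and the receptor signalling inhibitor Spry2 (-1.71) also fell, and Dusp2 rose (2.07). No call was made without LPS+zVAD+Nec-1 replicate 1 for Dusp8 (adjusted p = 0.428) and without LPS+zVAD replicate 2 for Dusp14, Dusp8 and Dusp5 (adjusted p = 0.0639 to 0.265). A fit of the WT arrays alone did not call Dusp8 (adjusted p = 0.113). With normexp background the log2 difference was -1.53 for Dusp5. The dimmer probe had a log2 difference of -1.06 for Dusp8. The difference was -4.27 for Dusp8 without LPS+zVAD+Nec-1 replicate 2.

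F3, Plau, Hbegf and Plaur, genes of coagulation, plasminogen activation and EGF signalling, fell with Nec-1. F3, which encodes tissue factor, the initiator of coagulation (probe on chromosome 3, 121437717 to 121437776 of mm9), was at 13.85 and 14.99 on the LPS+zVAD arrays and 9.34 and 9.91 on the LPS+zVAD+Nec-1 arrays, with both Nec-1 arrays below both others (27.7-fold lower, log2 difference -4.79, standard error 0.71, adjusted p = 6.36e-05). Plau, the urokinase plasminogen activator, was at 13.46 and 14.004 on the LPS+zVAD arrays and 8.85 and 10.77 on the LPS+zVAD+Nec-1 arrays (log2 difference -3.92, standard error 0.60, adjusted p = 8.61e-05). Hbegf, a ligand of the EGF receptor, was at 14.10 and 14.79 on the LPS+zVAD arrays and 10.78 and 11.51 on the LPS+zVAD+Nec-1 arrays (log2 difference -3.31, standard error 0.54, adjusted p = 0.000152). On both Nec-1 arrays Plau and Hbegf lay above their levels with LPS alone, 6.66 and 6.15 for Plau and 8.04 and 6.44 for Hbegf. The urokinase receptor Plaur fell (-1.25) and Nrg1, another EGF family ligand, rose (1.66). This makes 3 lower and 1 higher of 8 measured genes (37.5% and 12.5%, against 9.82% and 18.8% of all genes tested). The adjusted p rose above 0.05 without LPS+zVAD+Nec-1 replicate 2 for Nrg1 (adjusted p = 0.481), without LPS+zVAD replicate 1 for Nrg1 (adjusted p = 0.154) and without LPS+zVAD replicate 2 for Nrg1 (adjusted p = 0.0798). The WT arrays fitted alone did not give a call for Nrg1 (adjusted p = 0.102). The call also ended with arrays aligned at their 75th percentile for Nrg1, without the filter for Nrg1 and with array weights for Nrg1. The difference was 2.59 for Nrg1 without LPS+zVAD+Nec-1 replicate 1.

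The promoters of F3 and Dusp5 are shown because both genes fell by 4.79 and 2.51 log2 and their upstream bases hold motifs that MAP kinase-regulated factors are known to bind. The sequences are the 150 bases before the transcription start in RefSeq (GRCm38.p6), F3 at chr3:121723387-121723536, plus strand and Dusp5 at chr19:53528995-53529144, plus strand, and the pair was chosen after the matches were seen. Capitals mark the AP-1 site TGANTCA in F3 (starting 146 and 135 bases before the start) and the CArG box, the binding motif of serum response factor, in Dusp5 (82 and 72 bases before it). A match is a description of the letters, not evidence of binding. In the 250 bases before the start, the AP-1 site was in 6.18% of promoters of genes that fell and 5.07% of genes tested. For the CArG box these shares were 1.27% and 1.25%, so the pair does not stand for the genes that fell.
F3: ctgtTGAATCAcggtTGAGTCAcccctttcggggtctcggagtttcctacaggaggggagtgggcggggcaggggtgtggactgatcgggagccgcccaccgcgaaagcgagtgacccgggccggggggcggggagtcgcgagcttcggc
Dusp5: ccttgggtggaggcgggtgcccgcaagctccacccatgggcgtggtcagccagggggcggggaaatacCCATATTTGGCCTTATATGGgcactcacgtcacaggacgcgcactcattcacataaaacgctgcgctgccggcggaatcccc

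The cytokine genes Tnf, Ifnb1, Il6, Il1b, Il1a and Il10 did not pass the test of the Nec-1 effect with all arrays in the fit. Tnf, which encodes TNFα, was at 18.27 and 17.95 on the LPS+zVAD arrays and 16.68 and 17.01 on the LPS+zVAD+Nec-1 arrays and at 16.79 and 15.87 with LPS alone. The Nec-1 arrays lay below both LPS+zVAD arrays, and the log2 difference of -1.26 did not pass the test (standard error 1.11, adjusted p = 0.456, or 0.0891 without the Ifnar1-/- pair). It passed in the WT arrays fitted alone (adjusted p = 0.0289, or 0.0196 with the slide as a block there). Ifnb1, which encodes IFNβ, was at 14.02 and 15.51 on the LPS+zVAD arrays and 12.29 and 12.44 on the LPS+zVAD+Nec-1 arrays and at 10.38 and 9.004 with LPS alone (log2 difference -2.40, adjusted p = 0.088). With the slide as a block its adjusted p was 0.0331, in the WT arrays with the block 0.0191, and with normexp background 0.00463. Il6 was at 16.12 and 14.86 on the LPS+zVAD arrays and 16.54 and 15.83 on the LPS+zVAD+Nec-1 arrays (0.70, adjusted p = 0.813), in overlapping groups. Il1b (1.29), Il1a (-0.83), Il10 (-0.44) and Zfp36 (-0.38), whose product destabilises cytokine mRNAs, did not pass the test (adjusted p = 0.673 to 0.764).

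Of 25 cytokine genes retained, 5 fell and 2 rose with Nec-1 (20% and 8%), with a median of -0.44. The shares of all genes tested were 9.82% and 18.8%. Tnfsf14, the TNF superfamily ligand LIGHT, was at 12.72 and 14.15 on the LPS+zVAD arrays and 9.46 and 10.20 on the LPS+zVAD+Nec-1 arrays (log2 difference -3.61, standard error 0.52, adjusted p = 4.78e-05). The groups did not overlap, and the Nec-1 arrays stayed above the LPS arrays at 7.24 and 6.88. Inhba, the activin A subunit (-2.91), Vegfa (-2.35), the macrophage growth factor Csf1 (-1.46) and oncostatin M, Osm (-1.37), fell, and Il19 (1.94) and Ebi3 (1.27), a subunit of IL-27, rose. Il12b and Csf2 were below the limit of detection on too many arrays of the series to be retained, and are named after their values were seen. In a fit without that filter Csf2, which encodes GM-CSF, was at 10.81 and 8.97 with LPS+zVAD and 4.07 and 5.02 with Nec-1 (log2 difference -5.35, adjusted p = 2.37e-06), and was well above background on 1 of the Nec-1 arrays. Il12b was at 12.38 and 11.55 against 13.85 and 12.66 (1.29, adjusted p = 0.73). The test was no longer passed without LPS+zVAD+Nec-1 replicate 1 for Inhba and Vegfa (adjusted p = 0.152 to 0.158), without LPS+zVAD+Nec-1 replicate 2 for Csf1 (adjusted p = 0.158), without LPS+zVAD replicate 1 for Vegfa (adjusted p = 0.057) and without LPS+zVAD replicate 2 for Csf1, Inhba and Vegfa (adjusted p = 0.116 to 0.177). A fit of the WT arrays alone did not call Csf1 and Inhba (adjusted p = 0.0844 to 0.0976).

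Among chemokines 1 of 20 fell and 1 rose (5% each, median -0.03), Ccl17 (-2.68) and the interferon-inducible Cxcl9 (2.44). The neutrophil attractant Cxcl1 was at 17.25 and 16.86 on the LPS+zVAD arrays and 13.99 and 14.25 on the LPS+zVAD+Nec-1 arrays, groups that did not overlap, with a log2 difference of -2.93 (adjusted p = 0.152). Without the Ifnar1-/- pair its adjusted p was 0.0324, in the WT arrays alone 0.0354 and with the slide as a block there 0.0138. Cxcl2 was at 17.70 and 17.39 on the LPS+zVAD arrays and 14.95 and 15.56 on the LPS+zVAD+Nec-1 arrays (log2 difference -2.29, adjusted p = 0.268), and passed in the WT arrays with the slide as a block (adjusted p = 0.027). Of 44 genes known to be induced by TNF and NF-κB, 4 fell (F3, Csf1, Plaur and Junb) and 2 rose (Bcl3, 1.62, an IκB family coactivator, and Ier2), with a median of -0.32. These shares, 9.09% and 4.55%, lie below the 9.82% and 18.8% of all genes tested, in the fit with all arrays. The list was not counted without the Ifnar1-/- LPS+zVAD+Nec-1 pair. In that pair Tnf was at 15.92 and 9.99 and Cxcl1 at 15.30 and 8.67, a spread that enters the test of these genes. The low shares therefore do not show that Nec-1 left such genes unchanged. No call was made without LPS+zVAD+Nec-1 replicate 1 for Bcl3 (adjusted p = 0.0899), without LPS+zVAD+Nec-1 replicate 2 for Bcl3 and Cxcl9 (adjusted p = 0.0586 to 0.071), without LPS+zVAD replicate 1 for Bcl3 (adjusted p = 0.104) and without LPS+zVAD replicate 2 for Cxcl9 (adjusted p = 0.314). The difference was 3.85 for Cxcl9 without LPS+zVAD replicate 1.

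A part of the cell cycle genes fell with Nec-1. Of 27 measured, 9 fell and 0 rose (33.3% and 0%, against 9.82% and 18.8% of all genes tested), with a median of -0.54. Cdc6, which loads the replicative helicase on origins of replication (probe on chromosome 11, 98782986 to 98783045 of mm9), had the largest fall among the named genes, from 8.95 and 10.42 to 3.83 and 4.29 (log2 difference -5.63, standard error 0.45, adjusted p = 1.57e-07). It was well above background on both LPS+zVAD arrays and on neither Nec-1 array, so that by this probe and scale it was at least 33-fold lower, and it was at 2.85 and 3.97 with LPS alone and 6.75 and 7.20 in untreated cells. Mcm4, a subunit of that helicase, was at 13.40 and 14.05 on the LPS+zVAD arrays and 11.22 and 11.06 on the LPS+zVAD+Nec-1 arrays (log2 difference -2.59, standard error 0.27, adjusted p = 2.05e-06). The mitotic checkpoint kinase Bub1b (-3.41), the anaphase activator Cdc20 (-2.57), cyclin E1, Ccne1 (-1.94), the ribonucleotide reductase subunit Rrm2 (-1.76), Bub1 (-1.66), Mcm2 (-1.41) and Mki67 (-1.09) fell as well. The 150 bases before the start of Cdc6 (RefSeq, GRCm38.p6, chr11:98908001-98908150, plus strand) were chosen after the match was seen. E2F factors are known to drive this gene. Capitals mark the word TTTNNCGC, here on the opposite strand, 138 bases before the start. With normexp background the log2 difference was -3.29 for Cdc6. With the median of the probes the log2 difference was -3.70 for Cdc6. The dimmer probe had a log2 difference of -1.78 for Cdc6.
Cdc6: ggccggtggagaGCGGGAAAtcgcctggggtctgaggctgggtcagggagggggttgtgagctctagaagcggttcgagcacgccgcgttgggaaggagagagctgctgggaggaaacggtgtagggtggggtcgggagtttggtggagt

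Several other lists held genes that fell, against 9.82% lower and 18.8% higher of all genes tested. The shares that fell and rose were 27.8% and 11.1% for mRNA decay and 22.2% each for p53 targets and the BCL2 family. They were 26.7% and 6.67% for lipid handling, 8.33% and 12.5% for cholesterol synthesis and 33.3% and 16.7% for the aryl hydrocarbon receptor list. Of 18 measured genes of mRNA decay and AU-rich element binding, 5 fell, among them Zfp36l2 (-2.26), a relative of Zfp36, the decapping enzyme Dcp2 (-1.17) and the roquin gene Rc3h1 (-0.90), and 2 rose. Of 18 p53 targets and BCL2 family genes 4 fell and 4 rose. The fallers were the killer Bcl2l11, known as BIM (-2.06), Trp53inp1 (-1.96), the p53 ligase Mdm2 (-1.66) and Bid (-0.66), and Bmf, another killer protein of the BH3-only kind (2.58), Bak1 (1.03), Bad (0.87) and Bcl2l1 (0.72) rose. Bmf was well above background on neither LPS+zVAD array, which on this scale makes it at least 5.96-fold higher with Nec-1. That bound depends on the background correction and normalization. Among 15 genes of lipid handling the nuclear receptor Pparg (-1.73), its targets Fabp4 (-1.94) and Cd36 (-0.86), and Fasn (-1.16) fell and Lpl rose (0.96). The sterol regulators Insig1 (-2.35) and Srebf2, a transcription factor (-1.21), fell. The synthesis enzymes Fdps (1.49), Nsdhl (1.45) and Mvk (1.06) rose, of 24 measured genes of cholesterol synthesis. The aryl hydrocarbon receptor Ahr (-1.50) and its target Tiparp (-1.40) fell and its repressor Ahrr rose (2.24), of 6. Calls were lost without LPS+zVAD+Nec-1 replicate 1 for Tiparp, Fdps, Nsdhl, Fabp4, Pparg, Dcp2, Bcl2l11, Trp53inp1 and Mdm2 (adjusted p = 0.0554 to 0.276), without LPS+zVAD+Nec-1 replicate 2 for Ahrr, Fasn, Lpl, Dcp2, Rc3h1, Bmf and Bcl2l11 (adjusted p = 0.0547 to 0.288), without LPS+zVAD replicate 1 for Fasn (adjusted p = 0.23) and without LPS+zVAD replicate 2 for Ahr, Tiparp, Fdps, Nsdhl, Srebf2, Fabp4, Pparg, Fasn, Lpl, Dcp2, Rc3h1, Bcl2l11 and Trp53inp1 (adjusted p = 0.053 to 0.568). A fit of the WT arrays alone did not call Fdps, Dcp2 and Bcl2l11 (adjusted p = 0.051 to 0.125). The call also ended with arrays aligned at their 75th percentile for Lpl (0.54), with normexp background for Fdps, Fasn (-0.55) and Bmf (0.90), in the authors' own normalized values for Fdps and Bmf (1.497), with the median of the probes for Bcl2l11 (-1.26), without the filter for Fdps and Fasn and with array weights for Fdps and Fasn. With the median of the probes the log2 difference was -0.75 for Srebf2. The dimmer probe had a log2 difference of -0.29 for Srebf2 and -0.47 for Bcl2l11. The difference was 2.47 for Fdps without LPS+zVAD replicate 1 and 2.19 for Nsdhl without LPS+zVAD replicate 1.

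The 15 largest falls among genes well above background on both LPS+zVAD arrays ran from -5.63 to -4.13 log2. Besides Cdc6 they included the membrane ligand ephrin B2, Efnb2 (-4.86), F3, Zbtb10 (-4.74), Depp1 (-4.61), Trim69 (-4.41), the small GTPase Rab15 (-4.39), Tmem88 (-4.36), Gm13391 (-4.36), Gm5086 (-4.31), the acyl-CoA thioesterase Acot1 (-4.25), Irf4, an interferon regulatory factor of lymphoid and myeloid cells (-4.24), 4833419A21Rik (-4.21) and Tmem144 (-4.13). They were chosen for this size. Their difference between LPS+zVAD+Nec-1 and LPS alone had a median of 0.99 and ran from 0.05 (Efnb2) to 2.95 (Trim69), none past the test. Irf4 was at 8.82 and 11.000 on the LPS+zVAD arrays and 4.83 and 6.51 on the LPS+zVAD+Nec-1 arrays and at 4.07 and 4.82 with LPS alone, so that the Nec-1 arrays lay nearer to the LPS arrays than to the LPS+zVAD arrays. The test was no longer passed without LPS+zVAD+Nec-1 replicate 1 for Gm13391 (adjusted p = 0.159) and without LPS+zVAD replicate 2 for Gm13391 (adjusted p = 0.181). The WT arrays fitted alone did not give a call for Gm13391 (adjusted p = 0.068). With normexp background the log2 difference was -2.55 for Efnb2, -2.77 for Gm5086 and -2.37 for 4833419A21Rik. With the median of the probes the log2 difference was -2.46 for Efnb2 and -2.28 for Rab15. The dimmer probe had a log2 difference of -0.07 for Efnb2 and -0.16 for Rab15.

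The genes that rose with Nec-1 outnumbered those that fell. The 15 largest rises ran from 3.85 to 4.50 log2 and were chosen for this size. Tor4a, a torsin family ATPase, was at 8.32 and 6.90 on the LPS+zVAD arrays and 11.73 and 12.45 on the LPS+zVAD+Nec-1 arrays (log2 difference 4.48, standard error 0.45, adjusted p = 1.57e-06) and at 11.88 and 13.44 with LPS alone. Adora3, the adenosine A3 receptor, was at 8.38 and 6.81 on the LPS+zVAD arrays and 11.53 and 11.79 on the LPS+zVAD+Nec-1 arrays (log2 difference 4.06, standard error 0.52, adjusted p = 1.61e-05) and at 11.66 and 12.16 with LPS alone. Both genes were lower on both LPS+zVAD arrays than on any LPS or Nec-1 array. The others were Map10 (4.50), a microtubule-associated protein, the zinc finger genes Zfp54 (4.34), Zkscan8 (4.25) and Zfp760 (3.87), the G protein-coupled receptors Gpr18 (4.31) and Gpr85 (4.17), Tdrkh (4.16), the NEDD8 protease Senp8 (4.06), threonine aldolase, Tha1 (4.04), the dermatan sulfotransferase Chst14 (3.97), the adhesion protein Lrrc4 (3.95), Gm4123 (3.90) and Gm10661 (3.85). Map10, Senp8, Gm4123 and Zfp760 were well above background on neither LPS+zVAD array, which on this scale makes them at least 21.7-fold, 7.86-fold, 11.9-fold and 7.12-fold higher with Nec-1. These bounds set the mean of the bright group against, on each dim array, the higher of the lowest signal well above background and the probe's own signal, and they depend on the background correction. The difference of the 15 genes from LPS alone had a median of -0.25. No call was made without LPS+zVAD+Nec-1 replicate 1 for Lrrc4 (adjusted p = 0.0618), without LPS+zVAD+Nec-1 replicate 2 for Zfp760 and Gm10661 (adjusted p = 0.0777 to 0.0818) and without LPS+zVAD replicate 2 for Gpr18, Lrrc4 and Gm10661 (adjusted p = 0.0562 to 0.249). A call was lost as well with normexp background for Zfp760 (1.25). With normexp background the log2 difference was 1.91 for Map10, 2.13 for Zfp54, 2.56 for Gpr18, 2.03 for Zkscan8, 2.05 for Tdrkh, 1.28 for Senp8, 2.61 for Lrrc4 and 1.41 for Gm4123. In the authors' own normalized values the log2 difference was 2.96 for Map10, 2.40 for Senp8, 2.41 for Gm4123 and 2.30 for Zfp760.

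**Figure D3:**
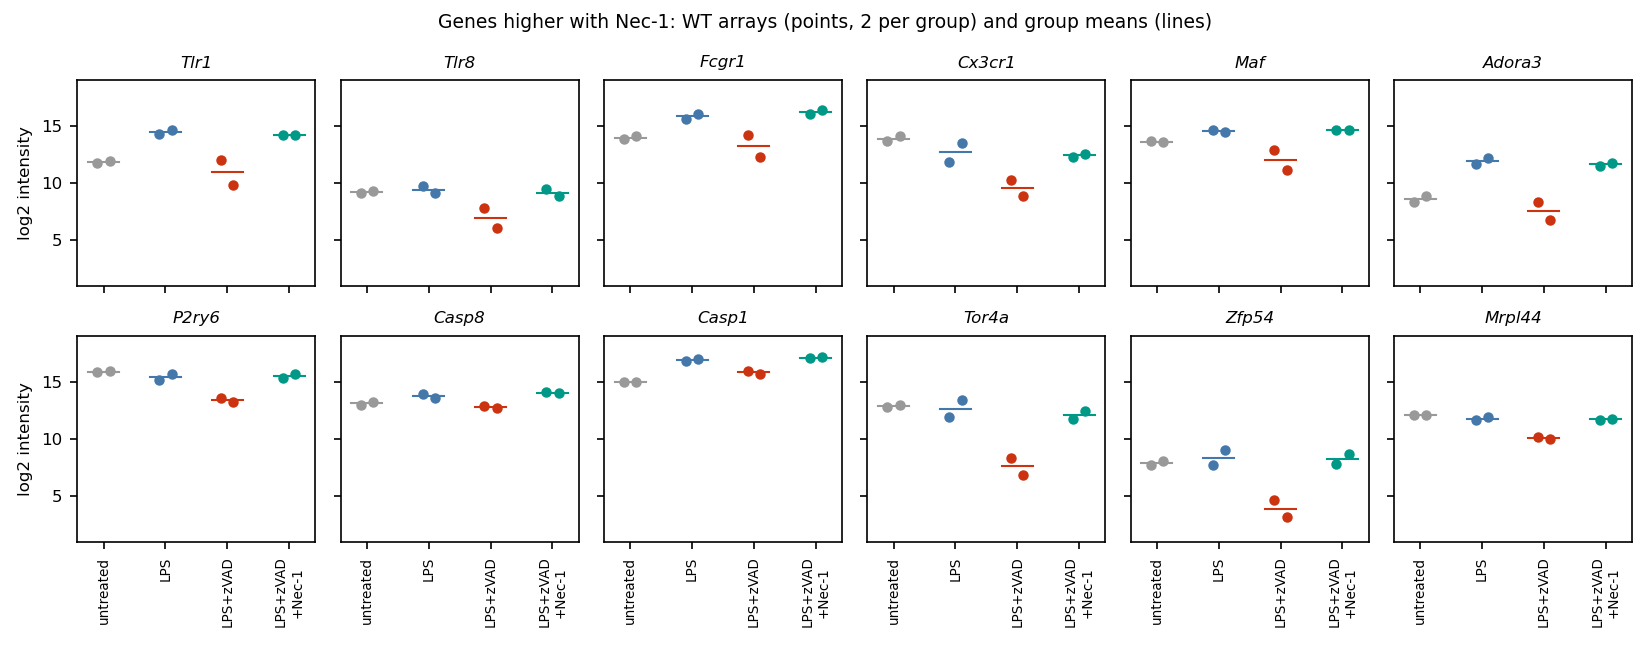
Log2 intensity of 12 genes higher with Nec-1, in untreated, LPS, LPS+zVAD and LPS+zVAD+Nec-1 WT BMDMs. Points are arrays (2 a group) and lines group means. The genes were chosen among those that rose, so the LPS+zVAD points below both Nec-1 points in each gene reflect that choice.

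Receptors and adaptors of the Toll-like receptor pathway were among the genes that rose, 9 of 27 (33.3%) against 3 that fell (median 0.28). Tlr1, which pairs with TLR2 to bind bacterial lipopeptides (probe on chromosome 5, 65316115 to 65316174 of mm9), was at 11.99 and 9.86 on the LPS+zVAD arrays and 14.20 and 14.22 on the LPS+zVAD+Nec-1 arrays (log2 difference 3.29, standard error 0.74, adjusted p = 0.00231) and at 14.27 and 14.64 with LPS alone. Tlr8 (2.21) and Tlr6 (1.60), the adaptor genes Ticam2 (2.29), Tirap (1.67) and Myd88 (0.97), the kinase Irak4 (1.21), the feedback pseudokinase Irak3 (1.98) and Tnip3 (1.58) rose, and Cish, a cytokine signalling inhibitor (-2.98), Tollip (-1.71) and Ticam1 (-0.93) fell. The LPS receptor gene Tlr4 had a log2 difference of 0.87 (adjusted p = 0.0663). Of 14 inflammasome genes 4 rose and 1 fell (28.6% and 7.14%, against 18.8% and 9.82% of all genes tested). Casp1, the IL-1β-processing caspase, was at 15.95 and 15.69 on the LPS+zVAD arrays and 17.04 and 17.18 on the LPS+zVAD+Nec-1 arrays (log2 difference 1.29, standard error 0.21, adjusted p = 0.000177), and the DNA sensor Aim2 (1.78), the adaptor Pycard (1.49) and the pore-forming Gsdmd (0.80) rose too, while Nlrp1b fell (-1.40). The adjusted p rose above 0.05 without LPS+zVAD+Nec-1 replicate 1 for Tlr8 (adjusted p = 0.0583), without LPS+zVAD replicate 1 for Nlrp1b (adjusted p = 0.0738) and without LPS+zVAD replicate 2 for Tlr1 and Tlr8 (adjusted p = 0.0759 to 0.157). Other settings ended it too, in the authors' own normalized values for Nlrp1b and with the median of the probes for Nlrp1b. With normexp background the log2 difference was 1.26 for Ticam2.

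Surface receptors of macrophages showed the same direction in part. Of 22 C-type lectin, scavenger and Fc receptor genes 8 rose and 2 fell (36.4% and 9.09%, median 0.60). Fcgr1, the high-affinity IgG receptor, was at 14.21 and 12.30 on the LPS+zVAD arrays and 15.99 and 16.36 on the LPS+zVAD+Nec-1 arrays (log2 difference 2.92, standard error 0.77, adjusted p = 0.00734). Fcgr4 (2.22), the lectin Clec4a1 (2.19), the inhibitory receptor Fcgr2b (2.16), Cd300a (1.83), the scavenger receptor Msr1 (1.33), Fcgr3 (0.99) and Scarb1 (0.93) rose, and Clec10a (-1.66) and Cd36 fell. Of 25 receptors for purines, chemokines and chemoattractants 5 rose and 1 fell (20% and 4%, median 0.65), against 18.8% and 9.82% of all genes tested. P2ry6, a UDP receptor, was at 13.56 and 13.19 on the LPS+zVAD arrays and 15.37 and 15.65 on the LPS+zVAD+Nec-1 arrays (log2 difference 2.13, standard error 0.21, adjusted p = 1.37e-06), and the adenosine receptors Adora3 and Adora2b (2.79), the chemerin receptor Cmklr1 (1.99) and the ATP channel P2rx4 (0.85) rose. Cxcr4, the CXCL12 receptor, fell (-3.35), from 12.21 and 13.10 to 8.15 and 10.47, against 4.57 and 5.92 with LPS alone. Of 24 macrophage identity genes 5 rose and 2 fell, shares close to those of all genes (median 0.38). The risers were Fcgr1, the fractalkine receptor Cx3cr1 (2.83), the transcription factors Maf (2.64) and Spi1, known as PU.1 (1.31), and C1qc (0.68), and the fallers were Cebpa (-0.95) and Cd68 (-0.65). Calls were lost without LPS+zVAD+Nec-1 replicate 1 for Cxcr4 (adjusted p = 0.235), without LPS+zVAD+Nec-1 replicate 2 for Fcgr1, Cx3cr1, Fcgr2b and Adora2b (adjusted p = 0.0554 to 0.0993) and without LPS+zVAD replicate 2 for Fcgr1, Cx3cr1, Spi1, Fcgr2b, Cxcr4 and Adora2b (adjusted p = 0.0527 to 0.172). The WT arrays fitted alone did not give a call for Cx3cr1 (adjusted p = 0.0544).

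Many nuclear genes for mitochondrial proteins rose, by small amounts. Of 78 proteins of the mitochondrial ribosome 41 rose and 1 fell (52.6% and 1.28%), with a median of 0.55 log2 and 69 above 0. The shares of all genes tested were 18.8% and 9.82%, here and for the lists below in this paragraph. Mrpl44 was at 10.19 and 10.002 on the LPS+zVAD arrays and 11.67 and 11.76 on the LPS+zVAD+Nec-1 arrays (log2 difference 1.62, standard error 0.14, adjusted p = 2.36e-07), and at 11.66 and 11.91 with LPS alone. Mrpl40 (1.51), Mrps5 (1.44) and Mrps18c (1.43) followed, and Mrps6 was the gene that fell (-1.40). Of 80 subunits of the respiratory chain and ATP synthase 30 rose and 0 fell (37.5%, median 0.33), among them the complex I subunits Ndufs3 (1.16), Ndufv2 (1.02) and Ndufa5 (0.98) and the complex IV subunit Cox6a2 (1.12). Of 81 proteins of the cytosolic ribosome 0 rose and 0 fell, with a median of -0.13. With the slide as a block Rps4l (0.83) was called higher, and the members called lower included Rpl27a (-0.31) and Rpl35a (-0.31). With arrays aligned at their 75th percentile the median over all genes was -0.09. The 150 bases before the start of Mrpl44 (RefSeq, GRCm38.p6, chr1:79775868-79776017, plus strand) were chosen after the match was seen. The NRF1 site (GCGCA, any base, then GCGC) is in capitals 35 bases before the start. It was in 14.5% of 69 promoters of the mitochondrial ribosome, so Mrpl44 does not stand for the group in this. The test was no longer passed without LPS+zVAD+Nec-1 replicate 1 for Cox6a2 (adjusted p = 0.271) and without LPS+zVAD replicate 2 for Cox6a2 and Ndufa5 (adjusted p = 0.0932 to 0.607). In the WT arrays alone Cox6a2 did not pass (adjusted p = 0.108). The call also ended with normexp background for Cox6a2, in the authors' own normalized values for Cox6a2, without the filter for Cox6a2 and with array weights for Cox6a2. The difference was 1.90 for Cox6a2 without LPS+zVAD replicate 1.
Mrpl44: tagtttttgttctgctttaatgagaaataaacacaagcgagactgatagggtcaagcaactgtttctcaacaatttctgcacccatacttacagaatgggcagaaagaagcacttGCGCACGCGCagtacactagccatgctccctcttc

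Metabolic and effector lists held smaller numbers of changed genes, in shares near or below the 18.8% higher and 9.82% lower of all genes tested. The shares that rose and fell were 20% and 6.67% for nitric oxide, itaconate and eicosanoid genes and 16.7% and 5.56% for NRF2 targets. They were 18.5% and 7.41% for stress response genes, 9.09% each for glycolysis and hypoxia and 13.6% and 4.55% for antigen presentation. Nos2, the inducible nitric oxide synthase (2.003), Ass1, which regenerates its substrate arginine (1.77), and the phospholipase Pla2g4a (1.87) rose, of 15 measured, and Ptges, a prostaglandin synthase, fell by its brightest probe (-0.88), while its other probe had a log2 difference of 0.46. Of 18 NRF2 targets glutathione reductase, Gsr (2.15), G6pdx (1.85) and Gclm (1.01) rose and Gclc fell (-1.19). Of 27 stress response genes 5 rose, the most in Xbp1, the factor of the unfolded protein response (1.32), and Ppp1r15a (-1.71) and Dnajb9 (-1.42) fell. Of 22 genes of glycolysis and hypoxia Pfkfb3 (1.35) and Eno1 (0.74) rose and Hk2 (-1.30) and Vegfa fell. Of 22 genes of antigen presentation the immunoproteasome subunits Psmb9 (1.42) and Psmb8 (0.67) and the transporter Tap2 (0.88) rose and the costimulator Cd86 fell (-1.52). No call was made without LPS+zVAD+Nec-1 replicate 1 for Ppp1r15a, Gclm, Psmb8, Eno1, Nos2 and Ptges (adjusted p = 0.0556 to 0.259), without LPS+zVAD+Nec-1 replicate 2 for Gclm, Psmb8, Pfkfb3, Eno1, Pla2g4a and Ass1 (adjusted p = 0.0533 to 0.103), without LPS+zVAD replicate 1 for Ppp1r15a, Psmb8 and Ptges (adjusted p = 0.0615 to 0.0946) and without LPS+zVAD replicate 2 for Ppp1r15a, Gclm, Cd86, Psmb8, Hk2, Eno1, Nos2, Pla2g4a, Ass1 and Ptges (adjusted p = 0.0859 to 0.288). A fit of the WT arrays alone did not call Ppp1r15a, Eno1 and Ptges (adjusted p = 0.064 to 0.086). Other settings ended it too, with arrays aligned at their 75th percentile for Tap2 (0.50), Psmb8 (0.28) and Eno1 (0.33), with normexp background for Ptges, in the authors' own normalized values for Pla2g4a and Ptges, with the median of the probes for Ptges (-0.21) and with array weights for Psmb8. With arrays aligned at their 75th percentile the log2 difference was -1.36 for Ptges. With the median of the probes the log2 difference was 0.85 for Psmb9. The dimmer probe had a log2 difference of 0.29 for Psmb9. The difference was 0.83 for Xbp1 without LPS+zVAD replicate 2, 1.42 for Gsr without LPS+zVAD replicate 2 and 1.14 for G6pdx without LPS+zVAD replicate 2.

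Few interferon-stimulated genes passed the test in the fit with all arrays. Of 48 measured, 2 rose and 0 fell (4.17% and 0%), against 18.8% and 9.82% of all genes tested. The risers were the antiviral GTPase Gbp4 (1.97) and the virus tether Bst2 (0.86). The median was 0.18, with values from -0.64 to 1.97. This list was not counted without the Ifnar1-/- LPS+zVAD+Nec-1 pair. Such low shares do not show that Nec-1 left these genes unchanged. Zinc finger genes named Zfp, a list made after the values were seen, had a median of 0.46. Of these 330 genes, 113 were higher and 18 lower (34.2% and 5.45%), against 18.8% and 9.82% of all genes tested. The adjusted p rose above 0.05 without LPS+zVAD+Nec-1 replicate 2 for Gbp4 and Bst2 (adjusted p = 0.207 to 0.34), without LPS+zVAD replicate 1 for Gbp4 and Bst2 (adjusted p = 0.12 to 0.15) and without LPS+zVAD replicate 2 for Gbp4 and Bst2 (adjusted p = 0.0598 to 0.174). The WT arrays fitted alone did not give a call for Gbp4 and Bst2 (adjusted p = 0.0771 to 0.13). A call was lost as well with arrays aligned at their 75th percentile for Bst2 (0.42), without the filter for Gbp4, with array weights for Gbp4 and Bst2 and without the Ifnar1-/- pair for Gbp4.

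**Figure D4:**
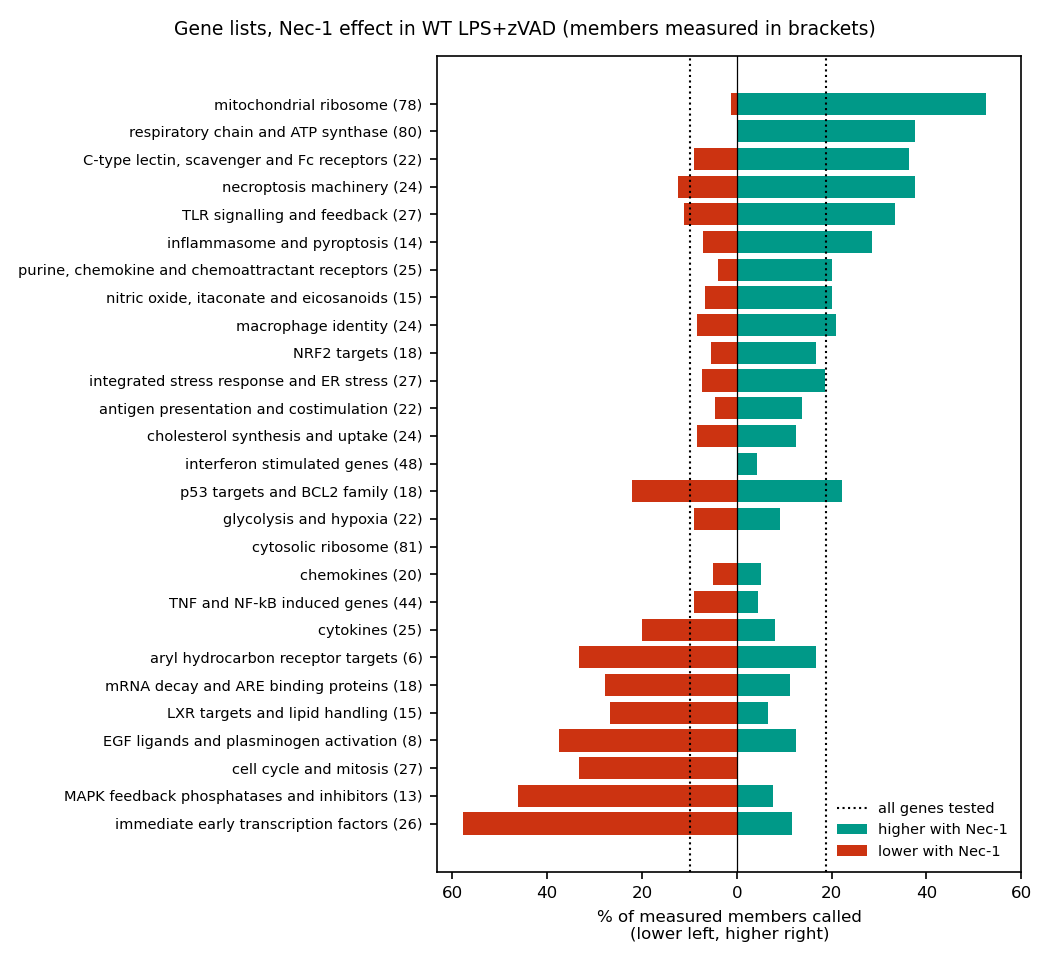
Share of the measured members of each gene list that fell (left) or rose (right) with Nec-1 in LPS+zVAD-treated WT BMDMs, with members measured in brackets. Dotted lines mark the shares of all genes tested, 9.82% lower and 18.8% higher. The immediate early genes (57.7% lower) and the mitochondrial ribosome (52.6% higher) lie at the ends.

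A small set of genes still differed from LPS alone after Nec-1. Of the 19 genes, 16 were higher and 3 lower with LPS+zVAD+Nec-1 than with LPS, and they are named here because their values stood out. The largest differences were in Gdf15, a stress cytokine (4.73), Hbegf (3.90), Rgcc, a regulator of the cell cycle (3.80), Plau (3.41), Tent5c, a poly(A) polymerase (3.38), Tnfsf14 (2.77) and the TWEAK receptor Tnfrsf12a (2.55). Hbegf had an adjusted p of 0.00439 in this comparison and Gdf15 of 0.0267. Gdf15 was at 10.14 and 9.75 with LPS, 16.57 and 16.60 with LPS+zVAD and 13.84 and 15.51 with Nec-1, so that its Nec-1 arrays lay between the other groups. Dgat2, a triglyceride synthesis enzyme (-2.18), the CSF1R ligand Il34 (-1.99) and Gal3st2 (-1.43) were the 3 lower genes, and their log2 differences between LPS+zVAD+Nec-1 and LPS+zVAD were 0.12, 0.22 and 0.40. The count depended on the fit, with 156 genes (86 higher and 70 lower) when the slide was a block, 85 without the Ifnar1-/- pair, 0 in the WT arrays alone and 0 without WT LPS replicate 2 (45 without LPS+zVAD+Nec-1 replicate 1, 9 without its replicate 2 and 65 without LPS replicate 1). Genes that did not pass this test are not thereby shown to be at the level of LPS alone.

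With IFNβ in place of LPS, Nec-1 moved no gene past the test with all arrays in the fit. By median log2 effect, TNF and NF-κB induced genes were at -0.65 (-0.32 with LPS+zVAD) and cytokines at -0.65 (-0.44). Feedback inhibitors of MAP kinases were at -0.68 (-0.22), immediate early genes at -0.27 (-1.18) and the mitochondrial ribosome at 0.22 (0.55). The paper reports from gene set enrichment that Nec-1 lessened the inflammatory response to IFNβ+zVAD. What zVAD added to IFNβ was not tested here. In the IFNβ+zVAD arrays limma gave 0 calls among 15960 genes (0%) for Nec-1, while 606 genes had an unadjusted p under 0.05. Leaving out single arrays gave 6 to 210 genes, the most without IFNβ+zVAD+Nec-1 replicate 2. The difference between the Nec-1 effects, tested directly on arrays that the comparisons do not share, passed for 1445 genes (9.05%). The signed difference, LPS+zVAD minus IFNβ+zVAD, was positive in 1013 of them and negative in 432, which is not a count of stronger effects. Of the 15 largest rises, which were chosen on LPS+zVAD, 11 differed and of the 15 largest falls 9, and that choice favours a difference. Cdc6 had a Nec-1 effect of -5.63 with LPS+zVAD and 0.40 with IFNβ+zVAD (difference -6.02, standard error 0.64, adjusted p = 5.33e-05). Adora3 had 4.06 and 0.08 (adjusted p of the difference = 0.00316). Ripk3 had -1.52 and 0.05 (adjusted p = 0.0201), and Ripk1 -0.83 and 0.16 (adjusted p = 0.0107). For Egr1 the values were -2.54 and -1.98, for Maff -3.82 and -1.64, for Cxcl1 -2.93 and -1.87, and for Tnf -1.26 and -0.79, and the differences did not pass (adjusted p = 0.309 to 0.916). The differences numbered 3559 with the slide as a block, 461 in the WT arrays alone, 455 without LPS+zVAD replicate 2, 722 without LPS+zVAD+Nec-1 replicate 2, 728 without IFNβ+zVAD+Nec-1 replicate 1 and 754 without IFNβ+zVAD replicate 1.

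**Figure D5:**
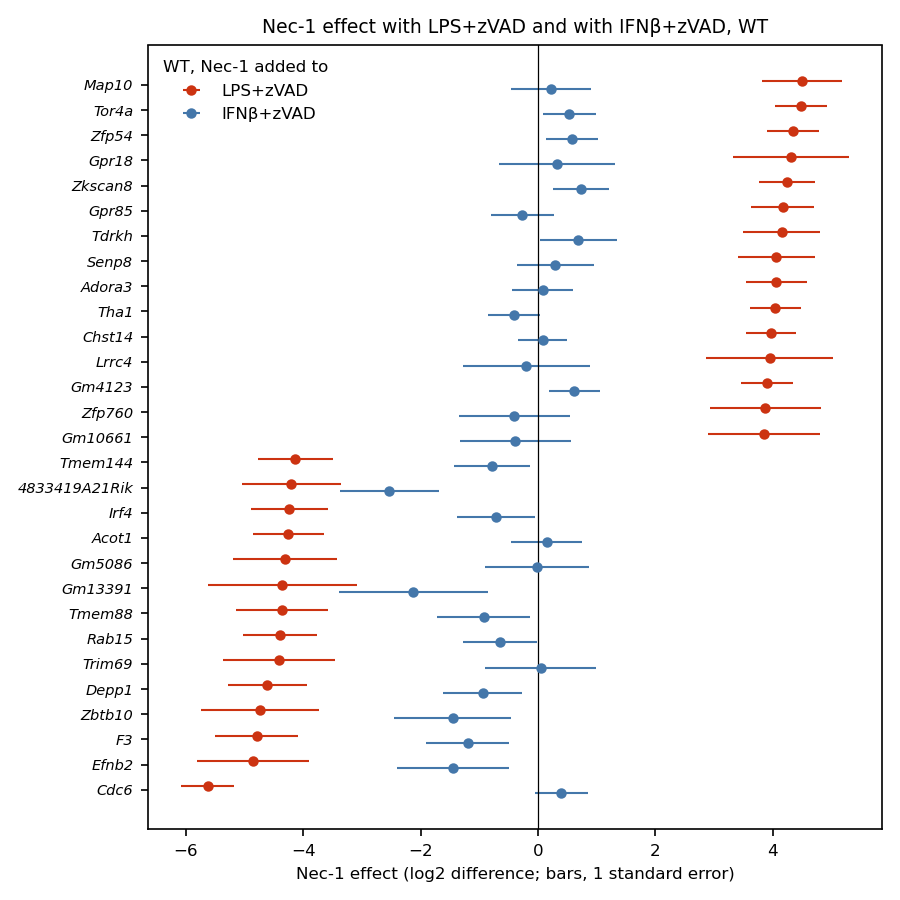
Log2 effect of Nec-1 on the 15 largest rises and 14 of the 15 largest falls, with LPS+zVAD and with IFNβ+zVAD in WT BMDMs. Points are differences of group means of 2 arrays and bars 1 standard error, and the genes were chosen on the LPS+zVAD effect, which lies beyond 3.85 log2 in size for each while the IFNβ+zVAD effect lies between -2.53 and 0.74.

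In Ifnar1-/- BMDMs with LPS+zVAD, Nec-1 changed 3007 genes (18.8%), 1781 higher and 1226 lower, and the difference between the WT and Ifnar1-/- effects passed for 1591 genes (9.97%). The genotypes lie on different slides. These values rest in part on the array labelled Ifnar1-/- LPS+zVAD+Nec-1 replicate 2, which stands apart. Tnf was at 15.92 on replicate 1 and 9.99 on this array, and Il6 at 14.26 and 4.94. Without it 1460 genes changed and 847 differed from WT, and without its partner 4471 and 3522. Without Ifnar1-/- LPS+zVAD replicate 1 they numbered 947 and 902 and without its replicate 2 1594 and 613, and the difference from WT numbered 755 without WT LPS+zVAD replicate 2, 976 without WT LPS+zVAD+Nec-1 replicate 1 and 774 without its replicate 2. Aligning arrays at their 75th percentile, without quantiles, moved the higher share of the changed genes from 59.2% to 42.3%. With the slide as a block the counts were 5609 and 3840. Side by side, the Nec-1 effects in WT and Ifnar1-/- cells were -5.63 and 0.54 for Cdc6, -4.79 and -6.02 for F3, 4.06 and 1.09 for Adora3, 1.62 and 0.86 for Mrpl44, and -1.52 and -0.97 for Ripk3, with both Ifnar1-/- Nec-1 arrays in the mean.

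The 250 bases before the transcription start were searched on both strands for 12 motifs in RefSeq promoters (GRCm38.p6, first listed start of a gene), which were found for 12051 of the genes tested. The ETS site CCGGAAG was in 18.3% of the promoters of genes that rose, 10.3% of those that fell, 12.2% of the genes tested and 6.91% of all 32851 promoters in the table. The NRF1 site was in 9.81%, 6.35%, 7.14% and 3.74%, and in 14.5% of 69 promoters of the mitochondrial ribosome. Genes that rose held both sites more often than genes that fell, in plain shares without a test. The ETS site was also in 28.8% of 59 promoters of the cytosolic ribosome, a list with 0 genes that rose or fell, and in 24.6% of those of the mitochondrial ribosome. Of 19 promoters of the immediate early list, the most lowered, 0 held the AP-1 site and 1 the CArG box. The AP-1 site was in 3.39% of the genes that rose, 6.18% of those that fell, 5.07% of the genes tested and 6.75% of all promoters. The CArG box was in 1.12%, 1.27%, 1.25% and 1.47%, and the E2F word in 7.24%, 7.11%, 6.36% and 4.28%, with 21.7% of 23 cell cycle promoters. These shares describe letters and say nothing of binding.

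A permutation test of a single gene over these 4 arrays has 6 splits and, two-sided and exact, cannot give a p below 0.333, so every call above rests on limma's pooling of the spread over genes and groups. Groups that do not overlap are the most extreme of these splits. Their share over all genes was not counted, so non-overlap above only describes the genes named. Of the 4568 genes that rose or fell, 4562 did so in the same direction without the Ifnar1-/- pair, 3552 in the WT arrays alone, 3523 in the authors' normalized table (296 not tested there) and 2503 without LPS+zVAD replicate 2.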

How the data were processed

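Total RNA of BMDMs was hybridised to 32 Agilent 1-colour arrays, 2 for each of 8 treatments in 2 genotypes, and each of the 4 slides held all treatments of 1 genotype and 1 replicate number. The deposited scanner files hold intensities made by the authors with Feature Extraction 11.5.1.1, which subtracted the background and detrended each array. The authors also deposited a table of quantile-normalized log2 values, used here as an alternative.

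Here the deposited intensities were put on the log2 scale, outlier spots were left out, spots of a probe were averaged, and arrays were quantile-normalized. Probes well above background on at least 50% of the arrays were kept (21406 of 32987 probes with a gene name), following the study's methods, and the brightest probe stood for a gene. Names came from RefSeq by accession for 27656 probes, by symbol for 3401 and by synonym for 321, and from the array for 1609. The 16 groups were fitted together with limma 3.58.1 in R 4.3.3, and p-values were adjusted by Benjamini-Hochberg over all genes. A log2 difference is a difference of group means, and 1 log2 unit is 2-fold. No probe was saturated on the 4 arrays compared. The number of arrays limits the precision.

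Named genes were the 15 largest rises and falls that moved the same way within both slides and were well above background on both arrays of the higher group, a set of cytokine and necroptosis genes, and up to 4 members from each of 27 gene lists. A few of these genes are not reported here. Other changed members of a list were named after their values were seen. The comparison, the members and the lists were chosen with earlier results of these data known. Replicate numbers pair the arrays, since a number marks a shared slide, and deviations from the group mean correlated at 0.47 between the LPS+zVAD and LPS+zVAD+Nec-1 groups and at 0.32 to 0.67 over the 28 pairs of WT groups. Alternatives were another normalization, background correction, filter and rule for probes, the authors' table, array weights, the slide as a block, fewer arrays in the fit and each array left out in turn. The scripts were tested on simulated data.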

Additional observations from a re-analysis of the deposited data

Results flagged for a closer look

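The Nec-1 effect differed between LPS+zVAD and IFNβ+zVAD in WT BMDMs for 1445 genes, by the test of the difference in limma. Between WT and Ifnar1-/- BMDMs with LPS+zVAD it differed for 1591 genes. That count rests in part on the array labelled Ifnar1-/- LPS+zVAD+Nec-1 replicate 2, which stands apart from its partner. Among the largest rises the difference between the stimuli (LPS+zVAD minus IFNβ+zVAD, log2) was 4.45 for Tha1, 4.43 for Gpr85, 4.28 for Map10, 3.98 for Adora3, 3.94 for Tor4a, 3.89 for Chst14, 3.77 for Zfp54, 3.77 for Senp8, 3.51 for Zkscan8, 3.47 for Tdrkh and 3.28 for Gm4123. Among the largest falls it was -6.02 for Cdc6, -4.46 for Trim69, -4.40 for Acot1, -4.29 for Gm5086, -3.75 for Rab15, -3.67 for Depp1, -3.60 for F3, -3.53 for Irf4 and -3.35 for Tmem144. These genes were chosen on the LPS+zVAD effect, which enters the difference. Ripk3 (-1.57) and Ripk1 (-0.99), chosen by name, also passed this test.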

How the results depend on the processing

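The count of genes changed by Nec-1 in WT LPS+zVAD (4568) lay between 3654 and 6779 under the changes of normalization, background, filter, probe rule, weights, block and array set other than a fit of the 4 arrays alone, which gave 0, and between 2595 and 4361 with 1 array left out. With the replicate number (slide) as a block, all 4568 genes kept their direction and call. For zVAD in LPS the fit of its 4 arrays alone gave 1717 and single arrays left out 3583 to 5264. Against LPS alone, 19 genes became 41 with normexp, 0 in the WT arrays or in its 4 arrays alone, 85 without the Ifnar1-/- Nec-1 pair, 156 with the block and 31 with the block in WT arrays only, a setting chosen after seeing the data, and 0 to 65 with 1 array left out. For Nec-1 in IFNβ+zVAD, 0 genes became 2 with normexp, 2 in the authors' table, 21 without the filter, 5 with the block and 6 to 210 with 1 array left out. The difference between stimuli (1445) was 861 in the authors' table, 461 in the WT arrays, 896 with weights, 3559 with the block, 2465 with the block in WT arrays only, 0 in its 8 arrays alone and 455 to 2103 with 1 left out. In Ifnar1-/- cells 3007 became 1028 with weights, 5609 with the block, 0 in its 4 arrays alone and 947 to 4471 with 1 left out. The difference between genotypes (1591) was 1040 in the authors' table, 652 with weights, 3840 with the block, 0 in its 8 arrays alone and 613 to 3522 with 1 left out. Mlkl, at -0.13 with all arrays, ranged from -0.42 to 0.17 with 1 array left out. Fits with fewer arrays have fewer degrees of freedom, and the cause of the other shifts was not tested.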

Other observations

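The filter on dim probes removed 899 genes that were well above background on both arrays of one of the 2 groups compared. In a fit without the filter 24 of these rose and 96 fell with Nec-1. Besides Csf2, the epidermal growth factor receptor ligand Areg was among them, at 5.93 and 6.16 with LPS+zVAD and 2.34 and 3.50 with LPS+zVAD+Nec-1 (log2 difference -3.13, adjusted p = 0.0111 by limma). Areg was well above background on neither Nec-1 array. Il12a, a subunit of IL-12, was at 4.84 and 3.16 with LPS+zVAD and 6.28 and 5.87 with Nec-1 (2.07, adjusted p = 0.203). Csf3, which encodes G-CSF, was at 11.25 and 9.93 against 9.58 and 10.26 (-0.68, adjusted p = 0.818). These genes were chosen after their values were seen.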
